A study of Mus musculus with 12 samples.

Results

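The genes of cholesterol and fatty acid synthesis were followed in mouse bone marrow macrophages given interleukin-4 (IL-4), the cytokine of alternative macrophage activation. The set held 32 genes taken by name: 6 of the mevalonate pathway, 11 of the steps from farnesyl diphosphate to cholesterol, 6 regulators and carriers, and 9 of fatty acid synthesis, elongation and desaturation. All 32 were among the 18427 genes tested, through 65 of the 41174 probes on the array, of which 61 passed the filter on dim probes. Msmo1 was carried under its older name Sc4mol.

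Macrophages were grown from the marrow of C57BL6/J and Balb/cAnNCrl mice aged 8 to 12 weeks, in medium with human CSF1 at 200 ng/ml, and replated on day 6. From day 7 the cultures of each strain received mouse IL-4 at 10 ng/ml for 4 h or for 18 h, or were kept without it for 18 h (mock), so all 6 groups shared the CSF1 and no mock culture of 4 h was used here. Each group had 2 arrays from independent experiments, 12 arrays in all, and each array carried 1 µg of RNA from a pool of 2 males and 1 female. A replicate was therefore a pool of mice, and p-values measure the spread between 2 such pools per group. The protocol also mentions LPS, which no array's label lists.

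On the 12 arrays, 54.9% to 69.7% of spots were well above background, and all 32 members were so on every array through their tested probe, with no saturated spot. All 10 macrophage markers, among them Adgre1 and Csf1r, were above background on every array. Of 8 genes known to respond to IL-4, such as Arg1 and Retnla, 7 rose at 4 h and 8 at 18 h in C57BL6, and 6 and 7 in Balb/c. The arrays lay on 3 slides: slide 1 held 4 Balb/c arrays, slide 3 held 4 C57BL6 arrays, and slide 2 held 2 of each. Strain and slide were therefore partly confounded. No slide held mock arrays of both strains, so the strains could not be compared in mock within a slide. Balb/c mock replicate 1 and Balb/c 4 h replicate 1 stood apart for these genes. The 9 fatty acid genes had a median deviation from their own means of -1.14 and -0.72 on those 2 arrays, against 0.18 and 0.30 on the replicate 2 arrays of the same groups. Values without them are given beside the medians and the members they move most.

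Cholesterol is built from acetyl-CoA by way of HMG-CoA, mevalonate, squalene and lanosterol, and fatty acids are built from acetyl-CoA by way of malonyl-CoA. Most of these genes are targets of the SREBP transcription factors, which lie in the endoplasmic reticulum membrane bound to their escort SCAP, and which INSIG proteins hold there when sterols are plentiful. When sterols run low, SCAP carries SREBP to the Golgi, where it is cut and freed to enter the nucleus.

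SREBP acts on promoters together with NF-Y, a factor that binds the CCAAT box, and the letters of both were looked for in the 250 bases before each annotated start in the RefSeq annotation of GRCm38.p6. Windows were at hand for 25 of the 32 members, 33 windows in all. A CCAAT box (CCAAT on either strand) was in at least 1 window of 20 of the 25 genes (80.0%), against 37.49% of all 27025 genes with a window. The SREBP letters TCACNCCAC, on either strand, were found in 1 of the 25, Hmgcs1, against 1.22% of all genes. The E-box CACGTG was in 5 of 25 (20.0%, against 6.86%), and the STAT6 letters (TTC and GAA with 4 bases between) were in 0 of 25, against 6.76%. The motifs did not overlap each other in the windows printed, other than 2 CCAAT boxes of Fasn on opposite strands, and a match is a run of letters and not a measured site. Windows are printed for Hmgcs1, which held both motifs, for Mvd, the member that passed the test for IL-4, for Acss2, which passed for strain with all arrays of the strains apart, and for Fasn, which had the widest spread among arrays; capitals mark CCAAT boxes (ATTGG on the other strand) and the SREBP letters.
Hmgcs1, chr13:119690101-119690350, plus strand: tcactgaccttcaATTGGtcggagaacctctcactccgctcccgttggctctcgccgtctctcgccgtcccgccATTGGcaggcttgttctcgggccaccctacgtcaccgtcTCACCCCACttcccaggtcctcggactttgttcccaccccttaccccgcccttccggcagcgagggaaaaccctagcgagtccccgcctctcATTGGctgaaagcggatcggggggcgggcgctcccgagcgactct
Mvd, chr8:122443423-122443672, minus strand: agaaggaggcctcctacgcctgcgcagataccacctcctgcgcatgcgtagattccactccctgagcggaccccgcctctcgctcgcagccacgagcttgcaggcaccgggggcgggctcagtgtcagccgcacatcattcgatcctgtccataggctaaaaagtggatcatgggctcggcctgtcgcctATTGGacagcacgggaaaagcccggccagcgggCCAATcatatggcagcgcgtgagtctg
Fasn, chr11:120824548-120824797, minus strand: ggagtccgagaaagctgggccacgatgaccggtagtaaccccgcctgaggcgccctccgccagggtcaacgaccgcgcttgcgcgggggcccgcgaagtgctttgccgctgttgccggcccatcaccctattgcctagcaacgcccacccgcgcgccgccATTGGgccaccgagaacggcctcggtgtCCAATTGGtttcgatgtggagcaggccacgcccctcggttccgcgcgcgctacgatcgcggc
Acss2, chr2:155517793-155518042, plus strand: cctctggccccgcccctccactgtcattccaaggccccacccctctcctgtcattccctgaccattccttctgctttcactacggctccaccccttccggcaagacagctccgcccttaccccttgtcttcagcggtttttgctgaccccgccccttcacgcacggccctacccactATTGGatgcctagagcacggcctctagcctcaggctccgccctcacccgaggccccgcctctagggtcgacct

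The first question was whether the pathway moved with IL-4. After 18 h the members lay above mock on the whole, by a median log2 change of 0.38 over both strains against -0.00295 for all genes, with 29 of 32 positive. Only 1 member, Mvd, passed the test (limma, adjusted p under 0.05 over all genes), a share to be set beside the 9.36% of all genes called in that comparison. The median was 0.53 in Balb/c (30 of 32 positive) and 0.16 in C57BL6 (21 of 32 positive, but 14 of 32 with a median of -0.04 with slide as a block), and within each strain 0 members were called, where 3.73% and 4.29% of all genes were. All comparisons with mock at 4 h and at 18 h share their mock arrays. Without overlap between the 2 mock and the 2 IL-4 arrays at 18 h, 16 members were higher and 2 lower in Balb/c (21.1% and 21.2% of all genes), and 11 higher and 1 lower in C57BL6 (23.0% and 28.5%). At an unadjusted p under 0.05 there were 7 members in Balb/c and 2 in C57BL6 at 18 h, where 15.1% and 17.5% of all genes were. Without overlap at 4 h, 4 members were higher and 6 lower in C57BL6 (21.4% and 28.0%), and 4 higher and 3 lower in Balb/c (15.8% and 15.2%). At 4 h the median was -0.26 in C57BL6 and 0.10 in Balb/c, with 0 members called in either strain, where 3.25% and 1.43% of all genes were called, and 1 member in each at an unadjusted p under 0.05 (16.0% and 10.1% of all genes). Over both strains at 4 h, 0 members were called against 6.72% of all genes, with 2 at an unadjusted p under 0.05 (19.9% of all genes). With arrays paired by replicate number within strain (the replicate block), the members called were 0 at 4 h and 2 at 18 h in C57BL6 (16.6% and 17.4% of all genes), and 1 and 6 in Balb/c (7.32% and 15.1%). Over both strains the block called 2 members at 4 h (23.2% of all genes). It called 8 (25.0%) at 18 h over both strains, with Pmvk, Mvd, Fasn, Scd2, Acaca and Acly higher (10.9% of all genes were called higher) and Scap and Acss2 lower (14.1%).

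**Figure D1:**
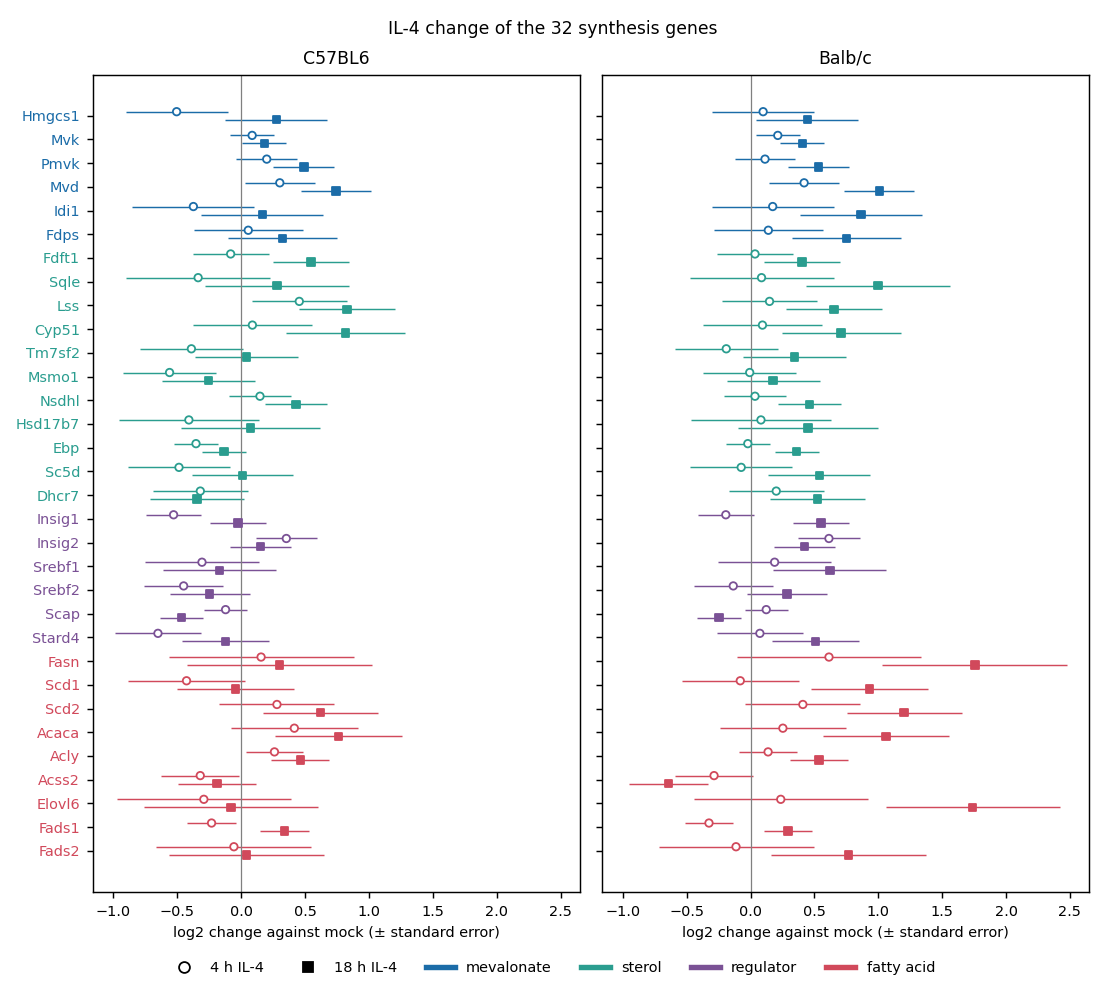
Log2 change against mock for each of the 32 members after 4 h (open circles) and 18 h (filled squares) of IL-4 in C57BL6 (left) and Balb/c (right), with bars of 1 standard error from the limma fit and colours for the 4 branches. In Balb/c the 18 h squares lie right of 0 for 30 of 32 members, and the widest bars are those of Fasn and Elovl6.

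The medians moved when a single array was left out. With Balb/c mock replicate 1 left out, the Balb/c 18 h median went from 0.53 to 0.27 and the both-strain median from 0.38 to 0.24, and the Balb/c 4 h median went from 0.10 to -0.30. With Balb/c 4 h replicate 1 left out, the Balb/c 4 h median was 0.31 and that of 18 h against 4 h over both strains went from 0.48 to 0.31. In C57BL6 the 18 h median of 0.16 was -0.08 without mock replicate 1 and -0.16 without 18 h replicate 2, and 0.382 and 0.385 without 18 h replicate 1 and mock replicate 2. The C57BL6 4 h median of -0.26 was 0.03 without mock replicate 2 and -0.04 without 4 h replicate 1. The Balb/c 18 h median stayed above 0, at 0.27 to 0.86, without any 1 of the Balb/c mock or 18 h arrays. Leaving out any other array cannot move it. The other 3 medians by strain each changed sign in at least 1 fit. Within replicate pairs of Balb/c, the median 18 h change was 1.09 for replicate 1 and 0.06 for replicate 2. In C57BL6 the replicate pairs gave 0.14 and 0.19 at 18 h, and -0.21 and -0.21 at 4 h. Across all 4 pairs, 11 members were above mock every time at 18 h (Acaca, Acly, Fads1, Fasn, Idi1, Mvd, Mvk, Nsdhl, Pmvk, Scd2 and Sqle) and 2 were below every time (Acss2 and Scap), where 17.8% and 20.3% of all genes were. At 4 h, 10 were above and 4 below every time, where 20.2% and 24.0% of all genes were.

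**Figure D2:**
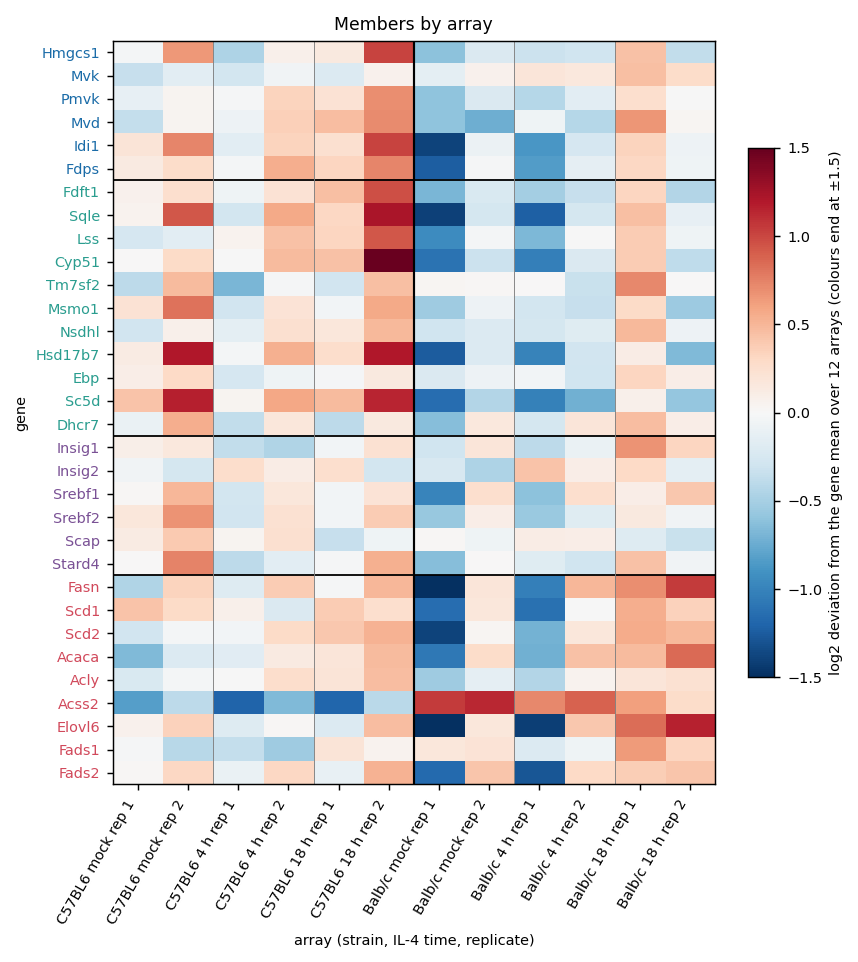
Deviation of each member (rows, coloured by branch as in the plot of changes) from its own mean on each of the 12 arrays (columns), on the log2 scale with colours ending at ±1.5. The Balb/c mock and 4 h replicate 1 columns are low for most fatty acid genes, and Acss2 is the member whose Balb/c arrays all lie above its C57BL6 arrays.

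In the mevalonate pathway, Mvd passed the test at 18 h and was the only member to pass it for IL-4. Mvd encodes mevalonate diphosphate decarboxylase, which makes isopentenyl diphosphate, the unit from which sterols and isoprenoids are assembled. Levels, given throughout as log2 signal relative to the array's 75th percentile with replicate 1 first, were 0.66 and 1.06 in mock, 0.94 and 1.38 after 4 h and 1.47 and 1.72 after 18 h in C57BL6. In Balb/c they were 0.42 and 0.29 in mock, 0.95 and 0.59 after 4 h and 1.68 and 1.04 after 18 h. Within each strain the 18 h arrays lay above the mock arrays without overlap, while the 4 h arrays overlapped mock in C57BL6 and lay between mock and 18 h in Balb/c. Over both strains Mvd rose 1.83-fold (log2 change 0.88 ± 0.19 SE, 95% interval 0.43 to 1.32, limma adjusted p = 0.0274, higher in 4 of 4 pairs). By strain the change was 0.74 in C57BL6 (adjusted p = 0.204) and 1.01 in Balb/c (0.104), and their difference, 0.27 ± 0.39, did not pass (0.975). With slide as a block the change was 0.90 (adjusted p = 0.00784) and with the replicate block its adjusted p was 0.00268, but with median scaling it was 0.0758, with no background filter 0.0597, and 6 of the 12 fits that left out 1 array put it between 0.0667 and 0.107. The arrays left out in those 6 were both Balb/c mock arrays, C57BL6 mock replicate 1, Balb/c 18 h replicate 1 and both C57BL6 18 h arrays, and the change ran from 0.72 to 1.03 over all 12. At 4 h Mvd was 0.36 ± 0.19 from mock over both strains (adjusted p = 0.363, and 0.0491 with the replicate block).

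The other 5 mevalonate genes were above mock at 18 h in both strains, with log2 changes over both strains from 0.29 (Mvk, mevalonate kinase) to 0.54 (Fdps, farnesyl diphosphate synthase), none past the test. Pmvk, phosphomevalonate kinase, was 0.51 ± 0.17 from mock (adjusted p = 0.113, and 0.034 with the replicate block), with arrays from 2.68 to 3.97. Hmgcs1 makes HMG-CoA, the substrate of mevalonate synthesis. Its C57BL6 levels were 4.49 and 5.17 in mock, 4.05 and 4.59 after 4 h and 4.67 and 5.53 after 18 h. Its Balb/c levels were 3.91 and 4.31 in mock, 4.19 and 4.22 after 4 h and 4.96 and 4.15 after 18 h. The 4 h arrays overlapped mock in both strains, and the changes at 4 h were -0.51 ± 0.40 in C57BL6 and 0.10 in Balb/c (adjusted p = 0.639 and 0.97). Idi1, which isomerises isopentenyl diphosphate, lay at 2.80 and 3.35 in mock, 2.46 and 2.95 after 4 h and 2.86 and 3.63 after 18 h in C57BL6. It lay at 1.22 and 2.53 in mock, 1.74 and 2.36 after 4 h and 2.94 and 2.53 after 18 h in Balb/c, where the mock replicates differed by more than 1 log2 unit and both 18 h arrays were at or above the higher of them. Its 18 h change was 0.86 ± 0.48 in Balb/c (adjusted p = 0.469) and 0.17 in C57BL6 (0.909), or 0.21 in Balb/c without mock replicate 1 and -0.09 in C57BL6 with slide as a block.

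Among the 11 genes that turn farnesyl diphosphate into cholesterol, 0 were called for IL-4 in any comparison, while all 11 were positive at 18 h in Balb/c (median 0.46) and 8 were in C57BL6 (median 0.07). At 4 h in C57BL6 their median was -0.34, with 8 of 11 negative. Sqle, squalene epoxidase, adds the oxygen at which squalene is later closed into the sterol ring. Its level was 3.25 and 4.13 in mock, 2.94 and 3.78 after 4 h and 3.52 and 4.43 after 18 h in C57BL6. The Balb/c level was 1.81 and 2.94 in mock, 1.98 and 2.94 after 4 h and 3.66 and 3.08 after 18 h. The Balb/c 18 h arrays lay above both mock arrays, with a change of 1.00 ± 0.56 (adjusted p = 0.482), or 0.44 without mock replicate 1, but C57BL6 arrays overlapped (0.28, 0.864, or -0.15 with slide as a block). Lss, lanosterol synthase, closes the ring. It stood at 0.25 and 0.36 in mock, 0.56 and 0.95 after 4 h and 0.83 and 1.44 after 18 h in C57BL6 and at -0.44 and 0.47 in mock, -0.17 and 0.50 after 4 h and 0.89 and 0.45 after 18 h in Balb/c. In C57BL6 both IL-4 groups lay above mock, with 0.46 at 4 h and 0.83 ± 0.37 at 18 h (adjusted p = 0.657 and 0.305). In Balb/c the mock and IL-4 arrays overlapped. The other kept Lss probes gave -0.35 and 0.64 at 4 h in C57BL6, and 0.12 and 0.91 at 18 h. Cyp51, the lanosterol demethylase, was measured at 0.83 and 1.12 in mock, 0.82 and 1.31 after 4 h and 1.28 and 2.31 after 18 h in C57BL6 and at -0.27 and 0.51 in mock, -0.19 and 0.62 after 4 h and 1.21 and 0.45 after 18 h in Balb/c. Its 18 h change was 0.82 in C57BL6, without overlap, and 0.71 in Balb/c, with overlap (0.32 without mock replicate 1), or 0.76 ± 0.33 over both (adjusted p = 0.227).

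Msmo1, the oxidase that starts removal of the methyl groups at carbon 4, was lower at 4 h in C57BL6, as were most of the 11 sterol genes. Its C57BL6 levels were 5.48 and 6.08 in mock, 4.97 and 5.46 after 4 h and 5.22 and 5.83 after 18 h. Both 4 h arrays lay below both mock arrays, a change of -0.56 ± 0.36 (adjusted p = 0.541). In Balb/c Msmo1 was 4.72 and 5.18 in mock, 4.98 and 4.91 after 4 h and 5.54 and 4.72 after 18 h, with overlap and a 4 h change of -0.01, or 0.22 with slide as a block. Dhcr7, which makes cholesterol from 7-dehydrocholesterol, was 3.23 and 3.87 in mock, 2.96 and 3.50 after 4 h and 2.93 and 3.48 after 18 h in C57BL6 and 2.69 and 3.48 in mock, 3.06 and 3.51 after 4 h and 3.79 and 3.43 after 18 h in Balb/c. Its 18 h change was -0.35 in C57BL6 and 0.53 in Balb/c, a difference of 0.87 ± 0.52 that did not pass (adjusted p = 0.931). A second, dimmer Dhcr7 probe gave 0.44 in C57BL6 and 0.55 in Balb/c, so the C57BL6 direction depends on the probe, and the Balb/c change of the tested probe was 0.13 without mock replicate 1. Of the 19 members with several kept probes, 8 had probes of mixed sign at 4 h and 7 at 18 h in C57BL6, and 4 and 3 in Balb/c. Tm7sf2, Nsdhl and Ebp, which reduce, demethylate and isomerise the sterol ring, ranged over the 12 arrays from 1.21 to 2.61, -0.04 to 0.76 and 4.86 to 5.48, with 18 h changes over both strains of 0.19, 0.45 and 0.11 that did not pass. Fdft1, Hsd17b7 and Sc5d are described with the strains.

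None of the 6 regulators was called for IL-4. Insig1 and Insig2 encode the proteins that hold SCAP and SREBP in the endoplasmic reticulum. For Insig1, itself a classic SREBP target, levels were -0.09 and -0.02 in mock, -0.54 and -0.62 after 4 h and -0.21 and 0.06 after 18 h in C57BL6 and -0.47 and 0.0049 in mock, -0.57 and -0.28 after 4 h and 0.50 and 0.14 after 18 h in Balb/c. Both C57BL6 4 h arrays lay below all other C57BL6 arrays, with a change of -0.53 ± 0.22 (adjusted p = 0.285). Over both strains the 4 arrays at 18 h lay above the 4 arrays at 4 h without overlap, 0.63 ± 0.15 apart (adjusted p = 0.0712, and 0.0433 with the replicate block). Insig2 was high at 4 h, with 1.96 and 1.75 in mock, 2.29 and 2.13 after 4 h and 2.27 and 1.75 after 18 h in C57BL6 and 1.78 and 1.56 in mock, 2.44 and 2.12 after 4 h and 2.31 and 1.87 after 18 h in Balb/c. All 4 of its 4 h arrays lay above all 4 mock arrays, by 0.48 ± 0.17 (adjusted p = 0.157, and 0.0144 with the replicate block), and it was the 1 member without overlap in that comparison, where 4.47% of all genes were higher and 5.11% lower without overlap. Between 18 h and 4 h over both strains, 0 members were called where 3.73% of all genes were, with 6 at an unadjusted p under 0.05 (16.7% of all genes), and the replicate block called 4 (16.9% of all genes), with Insig1, Mvd and Fads1 higher (8.32%) and Scap lower (8.55%).

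Scap encodes the SREBP escort. Its levels were 3.75 and 4.02 in mock, 3.66 and 3.87 after 4 h and 3.28 and 3.56 after 18 h in C57BL6 and 3.65 and 3.56 in mock, 3.74 and 3.72 after 4 h and 3.43 and 3.29 after 18 h in Balb/c. All 4 arrays at 18 h lay below all 4 mock arrays and all 4 arrays at 4 h, the only member to lie below either set without overlap over both strains (6.92% of all genes did against mock and 4.98% against 4 h), although the highest 18 h array and the lowest mock array round to the same value. The difference from mock at 18 h was -0.36 ± 0.12 (adjusted p = 0.121, and 0.011 with the replicate block), but 0.00215 with normexp background correction. Srebf1 and Srebf2, the genes of the SREBPs themselves, were not called. Srebf1 was 5.06 and 5.55 in mock, 4.77 and 5.22 after 4 h and 5.01 and 5.25 after 18 h in C57BL6 and 4.05 and 5.30 in mock, 4.43 and 5.30 after 4 h and 5.15 and 5.45 after 18 h in Balb/c, where the replicate 1 arrays of mock and 4 h were the low ones. Its 18 h change was -0.17 in C57BL6 and 0.62 in Balb/c (adjusted p = 0.898 and 0.594, with -0.0032 in Balb/c without mock replicate 1), and that of Srebf2, which ranged from 4.62 to 5.86, was -0.25 and 0.28. Stard4, a cytosolic sterol carrier, was 0.39 and 1.13 in mock, -0.01 and 0.23 after 4 h and 0.36 and 0.91 after 18 h in C57BL6 and -0.25 and 0.39 in mock, 0.20 and 0.09 after 4 h and 0.83 and 0.33 after 18 h in Balb/c. By the tested probe both C57BL6 4 h arrays lay below mock, a change of -0.65 ± 0.34 (adjusted p = 0.418). The other kept Stard4 probes gave -0.02 and -0.03 for that change. The Balb/c 4 h arrays of the tested probe lay inside the mock range.

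**Figure D3:**
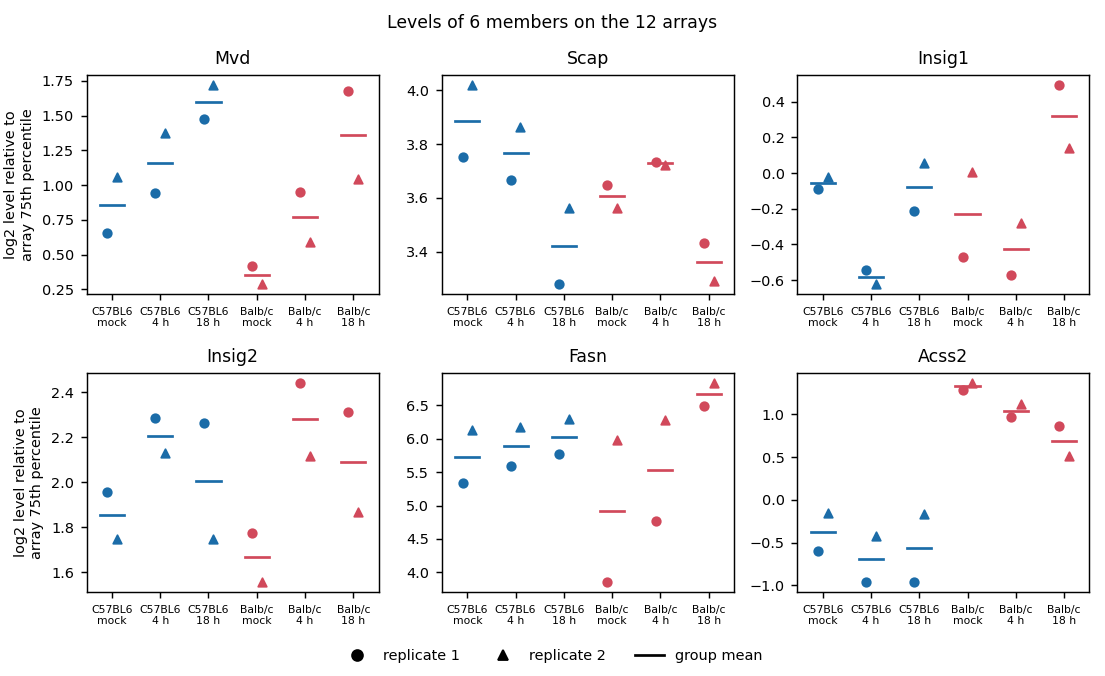
Log2 level relative to the array's 75th percentile for 6 members on the 12 arrays, with replicate 1 as circles, replicate 2 as triangles and bars at group means; each panel has its own vertical scale. At 18 h Mvd lies above its own strain's mock arrays and Scap below all 4 mock arrays, at 4 h Insig2 lies above all 4, and Acss2 separates the strains.

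In Balb/c at 18 h the widest changes of the 32 members were those of the fatty acid genes Fasn and Elovl6. At 18 h in Balb/c 8 of 9 were above mock, with a median of 0.93, against 6 of 9 and 0.30 in C57BL6, and 0 were called in either strain. Fasn encodes fatty acid synthase, which builds palmitate. It was measured at 5.34 and 6.13 in mock, 5.60 and 6.18 after 4 h and 5.77 and 6.29 after 18 h in C57BL6. In Balb/c it was at 3.85 and 5.98 in mock, 4.77 and 6.29 after 4 h and 6.50 and 6.84 after 18 h. The 2 Balb/c arrays at 18 h were above every other array, but mock replicate 1 lay more than 2 log2 units below mock replicate 2. The Balb/c 18 h change was 1.76 ± 0.72, 3.38-fold (adjusted p = 0.303, and 0.0384 with the replicate block), and without mock replicate 1 it was 0.69 (0.957). In C57BL6 it was 0.30 ± 0.72 (-0.04 with slide as a block), and the strain difference of 1.46 ± 1.02 did not pass (adjusted p = 0.946).

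Elovl6, which lengthens palmitate, was 0.61 and 0.90 in mock, 0.36 and 0.57 after 4 h and 0.34 and 1.01 after 18 h in C57BL6. It was -1.10 and 0.72 in mock, -0.86 and 0.95 after 4 h and 1.39 and 1.71 after 18 h in Balb/c, with the replicate 1 arrays of mock and 4 h below every other array of either strain. The Balb/c 18 h change of 1.74 ± 0.68 (adjusted p = 0.278, and 0.0369 with the replicate block) became 0.83 (0.92) without mock replicate 1. The C57BL6 change was -0.08, and the difference between strains, 1.82 ± 0.96 with a 95% interval of -0.40 to 4.04, was the widest of the 32 and did not pass (adjusted p = 0.931). Scd1 and Scd2 encode stearoyl-CoA desaturases, which place the first double bond. Scd2 was at 5.32 and 5.57 in mock, 5.56 and 5.89 after 4 h and 6.00 and 6.13 after 18 h in C57BL6 and at 4.21 and 5.64 in mock, 4.89 and 5.78 after 4 h and 6.16 and 6.09 after 18 h in Balb/c. All 4 of its 18 h arrays lay above all 4 mock arrays, by 0.91 ± 0.32 (adjusted p = 0.134, and 0.0391 with the replicate block), as did those of Acly, where 5.39% of all genes did so. Leaving out Balb/c mock replicate 2 took Scd2 to 1.27 (adjusted p = 0.0211), and leaving out replicate 1 took it to 0.55 (0.26). Scd1 was at 2.12 and 1.98 in mock, 1.77 and 1.48 after 4 h and 2.07 and 1.94 after 18 h in C57BL6 and at 0.55 and 1.86 in mock, 0.57 and 1.68 after 4 h and 2.24 and 2.03 after 18 h in Balb/c, with an 18 h change of 0.93 ± 0.46 in Balb/c and -0.04 in C57BL6 (adjusted p = 0.402 and 0.978). Without Balb/c mock replicate 1 the Scd1 change in Balb/c was 0.28, and with slide as a block that in C57BL6 was 0.06.

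Acaca encodes the acetyl-CoA carboxylase that makes malonyl-CoA, the committed step. Acaca levels were -1.50 and -1.04 in mock, -1.01 and -0.69 after 4 h and -0.65 and -0.36 after 18 h in C57BL6 and -1.91 and -0.55 in mock, -1.56 and -0.40 after 4 h and -0.35 and 0.01 after 18 h in Balb/c. The 18 h arrays lay above mock in each strain. The change over both was 0.91 ± 0.35 (adjusted p = 0.174, and 0.0138 with the replicate block), or 0.57 without Balb/c mock replicate 1. Among the alternatives for processing it fell as low as 0.28. The other kept Acaca probes, which were much dimmer, gave -0.15 and 0.27 at 18 h in C57BL6 and 0.42 and 0.19 in Balb/c. Acly, ATP citrate lyase, supplies cytosolic acetyl-CoA from citrate. It ranged from 0.75 to 1.75, and its 18 h change was 0.46 in C57BL6 and 0.54 in Balb/c, or 0.50 ± 0.16 over both (adjusted p = 0.105, and 0.013 with the replicate block). Fads1 and Fads2 encode the desaturases of long polyunsaturated fatty acids. Fads1 was 2.19 and 1.79 in mock, 1.85 and 1.67 after 4 h and 2.40 and 2.26 after 18 h in C57BL6 and 2.37 and 2.42 in mock, 2.00 and 2.14 after 4 h and 2.85 and 2.53 after 18 h in Balb/c. Its 4 arrays at 18 h lay above its 4 arrays at 4 h, by 0.59 ± 0.13 (adjusted p = 0.0534, 0.0381 with slide as a block and 0.0168 with the replicate block), in a comparison where 6 members (Ebp, Insig1, Stard4, Scd1, Scd2 and Fads1) and 4.98% of all genes were higher without overlap. Fads2 was 1.43 and 1.72 in mock, 1.31 and 1.73 after 4 h and 1.31 and 1.93 after 18 h in C57BL6 and 0.25 and 1.83 in mock, 0.14 and 1.72 after 4 h and 1.78 and 1.83 after 18 h in Balb/c, where the replicate 1 arrays of mock and 4 h lay more than 1 log2 unit below the other 4. The summed level of markers of adipocytes, a cell type rich in these enzymes, was higher with IL-4. It was -4.39 to -3.23 in C57BL6 mock and -4.30 to -3.80 in Balb/c mock, against -3.06 to -1.45 and -3.09 to -1.84 at 18 h. At 4 h it was -2.85 to -2.45 in C57BL6 and -2.49 to -1.64 in Balb/c. No marker other than Adipoq and Cidec rose above -4.4 on any array, so the sum speaks mainly for those genes. Of the 5 markers, Lep was above background on 0 arrays, Cfd on 1, Plin1 on 5, Adipoq on 8 and Cidec on 11, and their part in the result was not tested.

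The other question was whether the strains differed. In mock cultures 28 of 32 members were lower in Balb/c than in C57BL6 (median -0.53, against -0.09 for all genes). In that comparison 1 member was called, where 5.24% of all genes were, and no slide held mock arrays of both strains. Without Balb/c mock replicate 1 the median was -0.18, with 11 of 32 positive, without C57BL6 mock replicate 2 it was -0.35, without Balb/c mock replicate 2 -0.89, and with slide as a block it was -0.24. Without overlap, 15 members were lower and 3 higher, where 30.5% and 17.4% of all genes were. Over the 3 conditions the median was -0.26 (against -0.05), and 4 members were called, 1 higher and 3 lower, where 7.45% of all genes were called higher and 10.1% lower, 17.6% in all. That median was -0.10 with 14 of 32 positive with slide as a block, -0.14 without Balb/c mock replicate 1, -0.15 without Balb/c 4 h replicate 1, and -0.46 and -0.43 without replicate 2 of those groups.

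Acss2, which makes acetyl-CoA from acetate, was the only member called higher in Balb/c by the main limma fit. It lay at -0.59 and -0.15 in mock, -0.96 and -0.42 after 4 h and -0.96 and -0.17 after 18 h in C57BL6. It lay at 1.29 and 1.37 in mock, 0.96 and 1.12 after 4 h and 0.86 and 0.51 after 18 h in Balb/c. All 6 Balb/c arrays were above all 6 C57BL6 arrays, and Acss2 was the only member with no overlap between strains (4.28% of all genes were higher without overlap and 4.54% lower). In mock it was 3.25-fold higher (1.70 ± 0.31, limma adjusted p = 0.0178), and over the 3 conditions 2.95-fold (1.56 ± 0.18, 95% interval 1.15 to 1.97, adjusted p = 0.000692). The mock difference had an adjusted p of 0.0902, 0.0727 and 0.112 without Balb/c mock replicate 1, Balb/c mock replicate 2 and C57BL6 mock replicate 1, in that order. The mock call was also lost with normexp (adjusted p = 0.344), the mean of kept probes (0.159) and a fit of only the arrays compared (0.0788). With slide as a block the values were 1.85 (0.0835) and 1.83 (0.0256), and on slide 2, which held both strains at 4 h, Balb/c was 2.08 above C57BL6. A second Acss2 probe gave 1.69 over the 3 conditions, while another, well above background on 7 of 12 arrays, gave -0.20. With IL-4, both Balb/c arrays at 18 h lay below both mock arrays (-0.64 ± 0.31, adjusted p = 0.387, and 0.0492 with the replicate block).

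The other 3 called members, all sterol genes, were lower in Balb/c over the 3 conditions. Sc5d, the sterol C5-desaturase, was 2.99 and 3.73 in mock, 2.61 and 3.14 after 4 h and 3.04 and 3.71 after 18 h in C57BL6 and 1.42 and 2.13 in mock, 1.56 and 1.85 after 4 h and 2.64 and 1.98 after 18 h in Balb/c. The strains overlapped only in that the highest Balb/c array, at 18 h, was above the lowest C57BL6 array, at 4 h, and the difference was -1.27 ± 0.23 (adjusted p = 0.00734). With slide as a block it was -0.97 (0.226), on slide 2 at 4 h it was -0.76, and a second, dimmer Sc5d probe gave 0.02. The call was also lost with normexp correction (-1.21, adjusted p = 0.0608) and with the mean of kept probes (-0.62, 0.0925). Hsd17b7, a sterol ketone reductase, was -0.42 and 0.65 in mock, -0.57 and -0.01 after 4 h and -0.28 and 0.66 after 18 h in C57BL6 and -1.79 and -0.75 in mock, -1.54 and -0.84 after 4 h and -0.43 and -1.21 after 18 h in Balb/c. Its difference was -1.10 ± 0.32 (adjusted p = 0.0478), with -0.57 (0.627) for slide as a block, -0.26 on slide 2 and -1.04 from its second probe. Fdft1, squalene synthase, was 1.47 and 1.67 in mock, 1.34 and 1.63 after 4 h and 1.86 and 2.37 after 18 h in C57BL6 and 0.72 and 1.18 in mock, 0.90 and 1.07 after 4 h and 1.73 and 0.98 after 18 h in Balb/c. Here the difference was -0.63 ± 0.17 (adjusted p = 0.0406), -0.67 with slide as a block (0.302) and -0.28 on slide 2. For Hsd17b7 and Fdft1 alike, 9 of the 12 fits that left out 1 array put the adjusted p above 0.05, up to 0.123 and 0.11, while in those fits Sc5d stayed at or under 0.0259 and Acss2 at or under 0.00329. With normexp, median scaling, the deposited ratios, no background filter and slide as a block both calls were lost, and that of Fdft1 also with quantile scaling and the mean of kept probes. The calls held without Balb/c mock replicate 2 for both, without Balb/c 4 h replicate 2 and C57BL6 mock replicate 1 for Hsd17b7, and without Balb/c 18 h replicate 1 and C57BL6 18 h replicate 1 for Fdft1. Idi1, Sqle and Cyp51 were lower by 0.79, 0.94 and 0.89 and did not pass (adjusted p = 0.0882, 0.0859 and 0.0568).

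The replicate block, which leaves the spread between pools of a strain out of the error of a strain difference, called 2 members in mock (20.5% of all genes) and 11 over the 3 conditions (37.3%): Mvk, Acss2 and Fads1 higher (16.6% of all genes) and Pmvk, Mvd, Idi1, Fdft1, Sqle, Cyp51, Hsd17b7 and Sc5d lower (20.7%). Summed marker levels of other cells also differed by strain. The summed neutrophil level was 0.66 to 1.74 over the C57BL6 arrays and -1.26 to -0.17 over the Balb/c arrays, with 4 of 6 markers above background on every array, and the summed stromal level was -1.58 to -0.75 and -0.32 to 0.54, with 3 of 5 so. Pdgfrb ranged from -4.94 to -0.04 over the 12 arrays and no other stromal marker rose above -1.54. The Balb/c stromal sums therefore rest largely on Pdgfrb and do not show a difference shared by the stromal markers. Elane was above background on 1 array and Pdgfra on 3, and the part of these cells in the strain differences was not tested. In such bulk cultures, fewer cells of a type and less RNA per cell cannot be told apart. No member's IL-4 change differed between strains by the test of the difference itself, at 4 h or at 18 h, with 0 members called, 0% of all genes called and 0 members at an unadjusted p under 0.05 at either time (2.43% and 5.30% of all genes), and 0 called with the replicate block. The members' median difference was 0.25 at 4 h and 0.40 at 18 h, where without Balb/c mock replicate 1 it was -0.11 and 0.14.

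**Figure D4:**
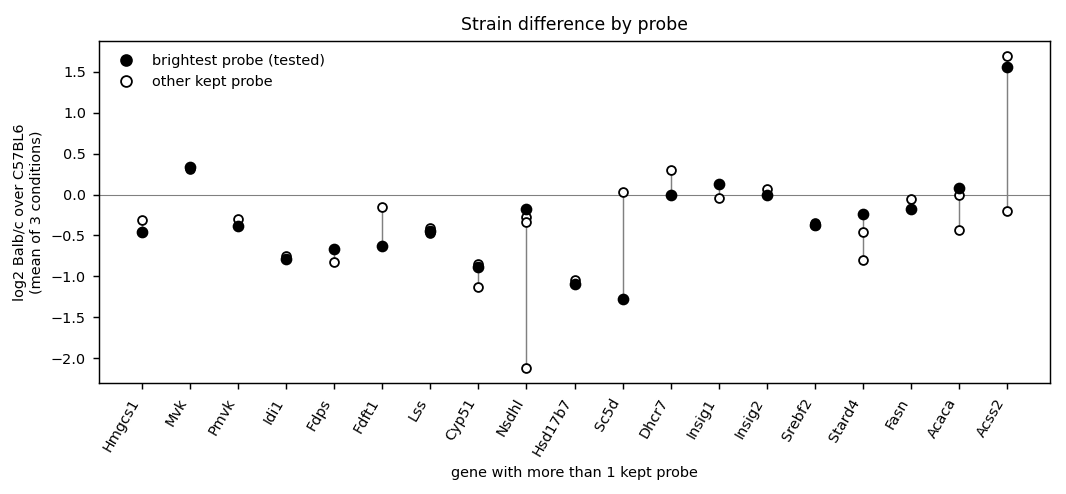
Log2 difference of Balb/c over C57BL6, mean of the 3 conditions, for each kept probe of the 19 members with more than 1, with the tested probe filled. The probes of 13 members have a common sign, while Sc5d, Nsdhl and Acss2 each have a probe more than 1 log2 unit from the tested probe.

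Members also differed together between replicates of a group. In C57BL6 replicate 2 was above replicate 1 for 29 of 32 members in mock, 28 at 4 h and 29 at 18 h, and in Balb/c for 28, 24 and 6. All genes were near an even split, from 41.4% to 56.3% above in the 6 groups. In Balb/c mock the median member differed by 0.65 between replicates and 11 members differed by more than 1, led by Fasn at 2.13. The cell cycle genes moved with them there: the 16 listed, such as Mki67 and Top2a, were all higher in replicate 2, by a median of 1.14. In Balb/c they were also higher in replicate 2 at 4 h (15 of 15 with both values, median 0.80) and at 18 h (13 of 16, median 0.22), and at 18 h most members were lower in replicate 2. In C57BL6, where most members were higher in replicate 2 in every group, the cell cycle genes were so for 7 of 16 in mock (median -0.02). At 4 h in C57BL6 it was 4 of 16 (median -0.09) and at 18 h 15 of 16 (median 0.32). Across conditions the cell cycle median was -0.53 at 4 h and -0.41 at 18 h in C57BL6, and -0.10 and 0.77 in Balb/c. For Balb/c against C57BL6 in mock it was -0.76, and limma called 0 in those comparisons. The replicate block called 3 higher at 18 h in Balb/c and 0 at 4 h. In C57BL6 it called 2 lower at 4 h and 1 lower at 18 h, and for the strains in mock 4 lower. The part of the cell cycle genes in the members' changes was not tested.

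**Figure D5:**
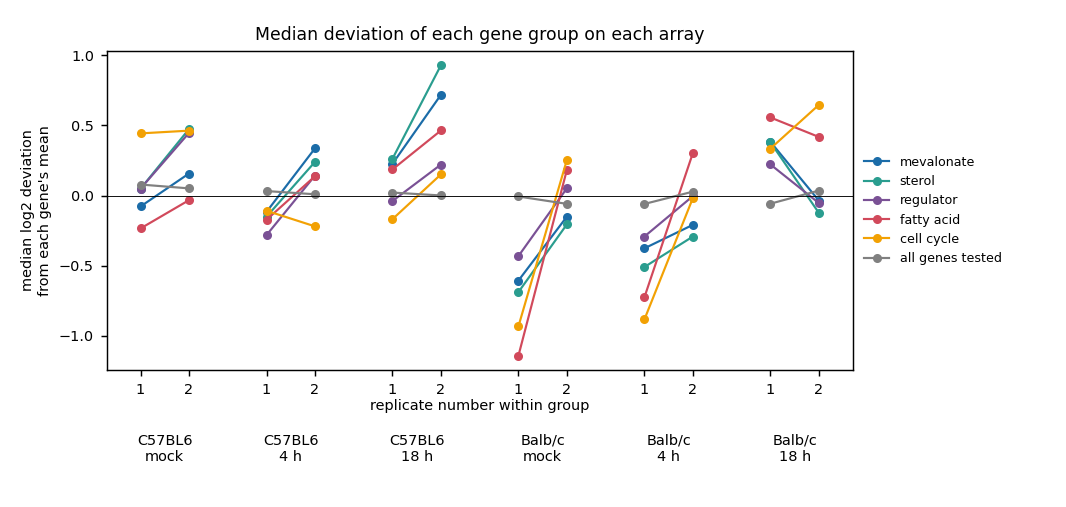
Median log2 deviation from each gene's own mean for the 4 branches, the 16 cell cycle genes and all genes tested, on each array; lines join the 2 replicates of a group and stand for no order. The fatty acid genes lie at -1.14 on Balb/c mock replicate 1 and 0.18 on replicate 2, while all genes stay near 0.

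Other genes of the same pathways are set beside the 9.36% of all genes called at 18 h over both strains and the 17.6% called for the strains over the 3 conditions. Of 11 further sterol and isoprenoid genes, 1 rose at 18 h over both strains, Acat2, the acetoacetyl-CoA thiolase at the head of the mevalonate pathway (0.78, adjusted p = 0.0447), and their median was 0.21. Ggps1, which makes geranylgeranyl diphosphate, and Erg28 were lower in Balb/c over the 3 conditions, by 0.84 (0.00112) and 0.41 (0.0468). Of 12 genes that process or degrade SREBP, INSIG and their partners, Erlin1, a part of the complex that degrades sterol enzymes, fell at 18 h by 0.43 over both strains (adjusted p = 0.045), and their median was 0.01. Of 25 further fatty acid and glycerolipid genes, 3 fell at 18 h over both strains and 0 rose, while their median was 0.11. The replicate block called 6 higher and 4 lower there (10.9% and 14.1% of all genes). At 18 h against 4 h over both strains, 3 were called higher and 0 lower, where 3.73% of all genes were called. Those that fell against mock were Lpin2 and Mid1ip1, by 0.97 and 0.72 (0.00928 and 0.0258), and Acsl1, which activates fatty acids, by 0.83 (0.0102). Lpin2 encodes a phosphatidate phosphatase, and Mid1ip1 a protein that helps acetyl-CoA carboxylase polymerise.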

How the data were processed

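RNA of 12 cultures was hybridised to Agilent 1-colour arrays and scanned; the submitters' processing notes name Agilent Feature Extraction 9.5.1.1. The deposited scanner files hold spot intensity, background-subtracted by the scanner software, per the file headers. A deposited table holds the ratio of each array to the mean of the 2 C57BL6 mock arrays, which matched ratios rebuilt from the scanner files; its column medians were 0.936 to 1.132, and its scaling is not given in the sources used here. Here control and outlier spots were dropped, log2 intensity was set relative to each array's 75th percentile (1199 to 1693 units), spots were averaged by probe, probes were kept that stood well above background on each array of some group (27373 of 41174), and the brightest kept probe stood for its gene. Gene names came from the scanner files or, for 17579 probes, through accessions in a RefSeq table. limma 3.58.1 in R 4.3.3 was fitted to 6 group means with 11 contrasts, and Benjamini-Hochberg adjustment ran over 18427 genes, called at 0.05. The fit was tested on simulated data.

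Given with all array values were members called in any contrast or among the 6 with the widest change in a contrast, and Scap, chosen after its values were seen; other genes were named from lists of up to 4 per contrast. Members and lists were chosen with earlier results of these data known. Arrays were paired by replicate number within strain, and over all genes tested same-numbered arrays deviated together in all 6 pairs of groups (r = 0.155 to 0.653). The members did not do so throughout. In Balb/c replicate 2 was above replicate 1 for 28 of 32 members in mock and 24 at 4 h, but for 6 at 18 h. The Balb/c replicate 1 arrays all lay on slide 1 and the C57BL6 replicate 2 arrays all on slide 3. A shared slide and a shared experiment are therefore partly confounded in these correlations. Alternatives were normexp correction, quantile or median scaling, the deposited ratios, other probe filters, the mean of probes, blocks for replicate and slide, and leaving out each array. With 2 arrays a group the number of arrays limits the precision.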

Additional observations from a re-analysis of the deposited data

How the results depend on the processing

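Of 28 member changes run under every alternative, 1 turned, that of Scap at 18 h over both strains. It was -0.36 by the main setting and 0.00215 with normexp correction. The 28 were those with an adjusted p under 0.05 in the main fit or, for changes with IL-4, with the replicate block. That choice favours a stable sign. Over all 32 members, slide as a block turned 9 at 18 h in C57BL6, 8 at 4 h in Balb/c, 6 for the strains in mock and 8 over the 3 conditions, and leaving out Balb/c mock replicate 1 turned 18 at 4 h and 5 at 18 h in Balb/c. Normexp moved the median of all genes, to -0.45 at 18 h in C57BL6, -0.31 in Balb/c and -0.37 over both strains, where the members' medians were 0.36, 0.66 and 0.57.

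The counts of members called moved most with the replicate block, which pairs arrays by replicate number. It gave 2 at 18 h in C57BL6, and 1 at 4 h and 6 at 18 h in Balb/c, against 0, 0 and 0. Over both strains it gave 2 at 4 h, 8 at 18 h and 4 for 18 h against 4 h, against 0, 1 and 0. For the strains it gave 2 in mock and 11 over the 3 conditions, against 1 and 4. Slide as a block gave 1 at 18 h in Balb/c, 1 for 18 h against 4 h, 0 for the strains in mock and 1 over the 3 conditions. At 18 h over both strains, median scaling and no background filter gave 0. For 18 h against 4 h, quantile scaling gave 1, and probes above background on all 12 arrays gave 2. For the strains in mock, normexp, the mean of kept probes and a fit of only the arrays compared gave 0. Over the 3 conditions, normexp gave 1, median scaling, the deposited ratios and no background filter gave 2, and probes above background on all 12 arrays gave 7. The cause of these moves was not tested. Leaving out 1 array at a time gave 0 to 1 members at 18 h in Balb/c and over both strains, 0 to 1 for the strains in mock, 2 to 7 over the 3 conditions, and 0 to 0 elsewhere; a lone array is then assumed to vary like the other groups.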

Other observations

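Genes of sterol efflux and storage, not members, gave calls in the same fits. Abca1, the exporter that loads cholesterol onto lipoproteins, fell by 1.68 at 4 h (limma adjusted p = 0.0011) and by 1.60 at 18 h over both strains (0.000797). Nr1h3, which encodes the sterol receptor LXR alpha, fell by 1.00 at 4 h (0.0147) and was lower in Balb/c by 1.17 over the 3 conditions (0.00115). Of the 13 genes of that list 2 fell at 4 h and 1 at 18 h over both strains, with medians of -0.12 and -0.18, where 6.72% and 9.36% of all genes were called. For the strains, 0 of the 13 were called higher in Balb/c and 1 lower in mock, where 5.24% of all genes were called. Over the 3 conditions 2 were called higher and 1 lower, where 17.6% of all genes were called. Of 11 tested genes of cholesterol transport and storage, Npc1, a lysosomal cholesterol transporter, rose by 0.51 (0.0351) and Stard3 fell by 0.82 (0.00169) at 18 h over both strains, and the median was -0.19. Among the 25 further fatty acid genes tested, 2 were called higher and 1 lower in Balb/c mock. Acacb, the acetyl-CoA carboxylase of mitochondria, and Dgat2, which makes triglyceride, were the higher ones, by 2.64 (0.00154) and 2.84 (0.0117). A dim Nsdhl probe was lower in Balb/c by 2.12 over the 3 conditions, where the 3 brighter Nsdhl probes gave -0.18 to -0.34.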
